A study of Mus musculus with 47 samples.

Results

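The cortex of mice whose microglia had been depleted was compared between the middle of the dark phase (ZT18) and the middle of the light phase (ZT6), 12 h apart. The comparison rests on 8 of the 47 libraries of the series, chosen by their labels: PLX5622 diet at ZT18 (4 mice) and PLX5622 diet at ZT6 (4 mice), with 1 library per mouse. All mice were male C57BL/6J of about 3 months, kept in 12:12 light and dark with lights on at ZT0 and off at ZT12, with 4 mice to a cage. They had eaten chow with 1200 ppm of PLX5622, an inhibitor of CSF1R, the receptor that microglia need to survive, for 10 days, and the cortex of 1 hemisphere was dissected for bulk RNA sequencing. Mice on control chow at the same 2 times (4 and 4) serve as the comparison with microglia present, and the other PLX5622 mice (24 in all, 6 Zeitgeber times, 4 h apart) enter the estimate of the spread. Whether the mice of a group shared a cage is not given in the sources used here, so that a cage and a Zeitgeber time cannot be told apart.

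The label was checked on the marker genes of microglia. The summed TPM (a level scaled to transcript length and to the library's total) of 20 microglial genes was 62.9 to 150 in PLX5622 mice at ZT6 and 77.0 to 139 at ZT18, and 777 to 925 and 691 to 855 in control mice at the same times. The diets did not overlap, and some microglial RNA remained under PLX5622. Cortical tissue was present in all 8 libraries by its excitatory neuron markers, which summed to 1703 to 2023 TPM at ZT6 and 1720 to 2113 TPM at ZT18. *Csf1r* itself was at 2.89 to 4.54 TPM at ZT6 and 3.5 to 10.1 TPM at ZT18 in PLX5622 mice, against means of 47.1 and 42.4 TPM in control mice. In bulk tissue, fewer cells of a type and less RNA per cell cannot be told apart.

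In the circadian clock, the activators CLOCK and BMAL1 (gene symbol *Arntl*) switch on the genes of their own repressors, the PER and CRY proteins and REV-ERBα (*Nr1d1*), and the delay in this loop gives a rhythm of about a day in most tissues, the cortex included. Genes can also follow the time of day through body temperature, waking, feeding and hormones. Mice are awake and active mostly in the dark phase, and their brain is warmer then, a state in which cold-inducible transcripts are usually low and heat shock transcripts high. ZT6 and ZT18 lie at opposite points of the cycle, so that a gene that peaks or dips near either time differs between them, while a gene that passes its mean at both times does not.

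The libraries held 18605079 to 23451422 gene counts at ZT6 and 21307101 to 24765168 at ZT18 (exact two-sided permutation test of the means, p = 0.543, where 4 mice against 4 can reach 0.0286). Mitochondrial transcripts took 8.36% to 8.90% of the counts at ZT6 and 6.72% to 10.0% at ZT18 (p = 0.943, same exact test), with the lowest share in ZT18 mouse 4. That mouse also lay farthest along the leading principal component of the 8 libraries, which held 27.8% of the variance. The summed TPM of 25 immediate early genes was 906 in it and 554 to 562 in the other ZT18 mice, against 460 to 669 at ZT6. The highest sum at ZT6, 669, was that of ZT6 mouse 4. Several other lists also summed highest in ZT18 mouse 4, among them chaperones of the endoplasmic reticulum (1351 TPM, other mice 748 to 1111). So did cytosolic heat shock genes (3958, other mice 2546 to 3394) and interneuron markers (1202, other mice 784 to 1101). Some lists did not, among them astrocyte markers (2579, other mice 2380 to 2887). Markers of tissue next to the cortex varied within both groups: blood summed to 193 to 1479 TPM at ZT6 and 438 to 1519 at ZT18, the choroid plexus to 757 to 1098 and 253 to 1149, the hypothalamus to 16.2 to 241 and 21.6 to 347, the cerebellum to 62.8 to 95.8 and 64.3 to 168, and the striatum to 693 to 1129 and 656 to 1009. The groups overlapped in all 5 lists. By the tests below, 0 of their members were called, beside 0.538% of all genes in edgeR and 0% in limma. Single mice stood out in some markers. ZT18 mouse 1 had 176 reads of the cerebellar marker *Gabra6* (other mice 0 to 5). ZT18 mouse 4 had 1980 reads of the choroid plexus marker *Ttr* (other mice 9931 to 18113). Without its expression filter, edgeR called 3 cerebellar markers higher and 1 choroid plexus marker lower at ZT18. The part of these tissues in the results was not tested.

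*Cry1*, *Per2*, *Hspa5* and *Homer1* were among the genes higher at ZT18 than at ZT6, and *Nr1d1*, *Cirbp*, *Insig1* and *Mvd* among those lower. However, how many genes passed depended on the test. With limma on log2(TPM + 1), 0 of 14515 genes (0%) passed a Benjamini-Hochberg adjusted p of 0.05, where the smallest adjusted p was 0.0607. Genes entered this test when they averaged 1 TPM or more over the 24 PLX5622 libraries. At an unadjusted p under 0.05 there were 1096 genes (7.55%), of which 479 (3.3%) were higher and 617 (4.25%) lower at ZT18. With edgeR's quasi-likelihood test on the deposited counts, 95 of 17664 genes (0.538%) passed the same adjusted threshold, 74 higher at ZT18 (0.419%) and 21 lower (0.119%), and 1964 (11.1%) had an unadjusted p under 0.05, 1121 of them higher (6.35%) and 843 lower (4.77%). DESeq2 called 272 of the 15339 genes to which it gave an adjusted p (1.77%). All 95 of the edgeR calls were among those of DESeq2, and of the 94 that limma also tested, 94 had the same sign and 85 an unadjusted limma p under 0.05. The tests used the same mice, so their agreement is not independent support. In what follows, "called" refers to the edgeR test, and this choice was made after limma had called no gene.

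The median log2 change was 0.43 among the 74 higher genes and -0.58 among the 21 lower ones, and the range ran from -1.39 to 1.24. Of the 95 genes, 89 were protein coding, and in 56 the 4 TPM values at ZT18 did not overlap the 4 at ZT6. Among all 14515 genes of the limma test, ZT18 lay wholly above ZT6 in 213 (1.47%) and wholly below in 342 (2.36%). The number of calls moved with single mice. It was 34 without ZT6 mouse 2, 44 without ZT6 mouse 3 and 48 without ZT6 mouse 4. It was 62, 46 and 37 without ZT18 mice 1, 2 and 4, while it was 84 without ZT6 mouse 1 and 89 without ZT18 mouse 3. All 95 genes kept their sign in each of these fits. These fits share all other mice with the fit that chose the genes, so a kept sign adds no independent support.

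**Figure D1:**
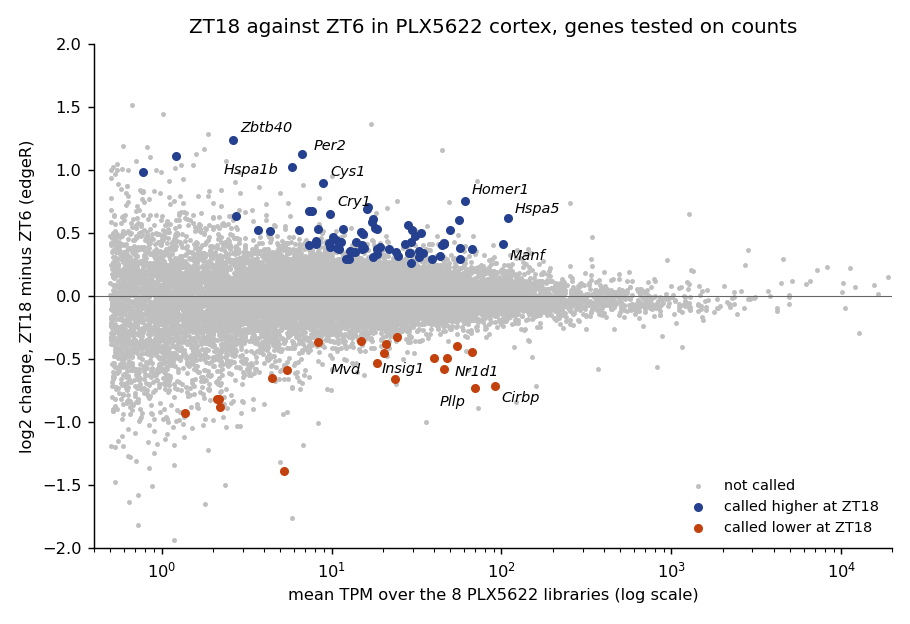
Log2 change from ZT6 to ZT18 in PLX5622 cortex (edgeR, y axis) against the mean TPM of the gene over the 8 libraries (x axis, log scale). Each point is a gene; 15455 of the 17664 genes tested are drawn, those with a mean of at least 0.5 TPM and a change of at most 2 in size. Blue points are the 74 genes called higher and orange points the 21 called lower, and most of them lie within 1 log2 unit of no change.

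Among the 11 clock repressors tested, *Per2* and *Cry1* were called higher at ZT18 and *Nr1d1* lower, 3 of 11. Over all genes tested, 0.419% were called higher and 0.119% lower. Values are given in the order of the mice 1 to 4 throughout. *Per2*, on chromosome 1 from 91415982 to 91459324 of GRCm38 (minus strand), was at 3.52, 2.67, 7.52 and 4.01 TPM at ZT6 and at 12.1, 7.10, 7.01 and 9.90 TPM at ZT18. In TPM ZT6 mouse 3 reached into the ZT18 range, but in the counts the groups were apart, with 416, 305, 473 and 366 reads at ZT6 and 848, 916, 830 and 882 at ZT18. The log2 change was 1.13 (standard error 0.12, edgeR adjusted p = 3.44e-06), and 0.93 in limma (standard error 0.21, adjusted p = 0.109). *Per2* encodes a PERIOD protein that, with the cryptochromes, closes the main loop of the clock.

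*Cry1*, which encodes one of the 2 cryptochromes, lies on chromosome 10 from 85131700 to 85185064 (minus strand). It was at 7.82, 7.91, 7.5 and 7.36 TPM at ZT6 and 13.8, 10.6, 10.6 and 13.1 TPM at ZT18. The ZT6 mice were nearly alike, and all ZT18 mice were above them (log2 change 0.65, standard error 0.08, edgeR adjusted p = 1.07e-04). The E-box, CACGTG, is the sequence that CLOCK and BMAL1 bind. It reads the same on both strands and is found in 6.02% of the 32851 windows of 250 bases that precede a RefSeq start. Among the clock repressors, 4 of the 9 with a RefSeq window hold it, *Cry1*, *Per1*, *Bhlhe41* and *Ciart*, of which *Cry1* alone was called here. *Per2* had no window and could not be searched. The 150 bases before the RefSeq start of *Cry1* (GRCm38.p6, chr10:85185055-85185204, minus strand, printed 5′ to 3′ along the gene) are shown because they carry that E-box, in capitals.
Cry1: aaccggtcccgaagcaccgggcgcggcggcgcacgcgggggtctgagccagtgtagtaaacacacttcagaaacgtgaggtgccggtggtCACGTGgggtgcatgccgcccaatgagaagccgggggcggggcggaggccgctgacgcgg
A match of letters is a description of the sequence only.

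*Nr1d1*, the gene of the transcriptional repressor REV-ERBα, was called in the other direction. It lies on chromosome 11 from 98767932 to 98775333 (minus strand). It was at 52.8, 51.3, 59.4 and 57.4 TPM at ZT6 and at 35.5, 33.2, 36.7 and 40.2 TPM at ZT18, so that every ZT18 mouse was below every ZT6 mouse (log2 change -0.58, standard error 0.08, edgeR adjusted p = 6.02e-04). Its relative *Nr1d2* was not called, at 30.5 to 34.3 TPM and 32.4 to 45.1 TPM. The calls of *Per2*, *Cry1* and *Nr1d1* held in all 8 fits that left out a mouse.

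The other 7 repressors were not called. *Per3* came closest, at 5.08, 5.02, 6.19 and 6.34 TPM at ZT6 and 8.85, 7.13, 7.10 and 9.03 TPM at ZT18, without overlap (log2 change 0.41, edgeR adjusted p = 0.0632). *Bhlhe41* did not overlap either, with 8.45 to 10.0 TPM against 10.2 to 11.5 TPM (edgeR adjusted p = 0.619). *Per1* (15.2 to 21.3 and 13.7 to 24.8 TPM), *Cry2* (34.5 to 41.3 and 38.1 to 51.5 TPM), *Bhlhe40* (28.7 to 37.6 and 34.3 to 51.6 TPM), *Ciart* (7.39 to 11.6 and 7.08 to 14.7 TPM) and *Nfil3* (3.56 to 4.90 and 3.68 to 5.04 TPM) overlapped between the times. Over the 11 repressors the median log2 change in limma was 0.17, beside -0.005 over all genes tested.

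None of the 5 clock activators examined was called by limma or edgeR, and 0 had an unadjusted p under 0.05 in either test. Over all genes tested, edgeR called 0.538% and limma 0%, and 11.1% and 7.55% had an unadjusted p under 0.05. A count of 0 among 5 genes is near these shares. *Arntl* was at 9.94, 10.9, 13.4 and 11.4 TPM at ZT6 and 9.95, 9.43, 11.5 and 13 TPM at ZT18, and *Clock* at 9.54 to 10.3 and 8.78 to 13.3 TPM. The other members, *Npas2*, which can stand in for *Clock* in the forebrain, and the nuclear receptors *Rora* and *Rorb*, which drive *Arntl*, had log2 changes in limma of 0.12, 0.00 and 0.14. *Rorb* alone did not overlap, with 4.18 to 5.14 TPM at ZT6 and 5.16 to 6.05 TPM at ZT18. The list's median was 0.10.

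The PAR bZIP genes are a direct output arm of the clock: *Dbp*, *Tef* and *Hlf* encode related transcription factors that bind D-boxes. *Hlf* was called higher, at 66.2, 57.6, 62.3 and 49.8 TPM at ZT6 and 82.1, 61.6, 70.5 and 86.8 TPM at ZT18 (log2 change 0.37, standard error 0.07, edgeR adjusted p = 0.00817), although ZT18 mouse 2 lay within the ZT6 range. *Tef* was at 133, 125, 126 and 121 TPM at ZT6 and 169, 160, 141 and 180 TPM at ZT18. Its groups did not overlap, but it missed the threshold (log2 change 0.38, edgeR adjusted p = 0.0527). *Dbp* differed least, at 69.4, 79.1, 67.5 and 69.9 TPM and 80.7, 63.9, 74.9 and 68.3 TPM, with a log2 change of 0.01 in limma (standard error 0.10) and -0.05 in edgeR (standard error 0.12). Over the 6 Zeitgeber times in PLX5622 mice *Dbp* had a mean of 42.7 ± 2.7 TPM (SD, n = 4) at ZT2 and 126 ± 11.8 TPM at ZT14, and passed 71.5 TPM at ZT6 and 71.9 TPM at ZT18 on the way up and down. Of 7 other clock-controlled genes, *Fmo2*, a monooxygenase gene of low level (0.695 to 1.29 and 0.832 to 2.0 TPM), was called higher (edgeR adjusted p = 0.0146), beside 0.419% of all genes. It lost the call without ZT18 mouse 1 or 3 or ZT6 mouse 1, 3 or 4 (largest adjusted p 0.0711).

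**Figure D2:**
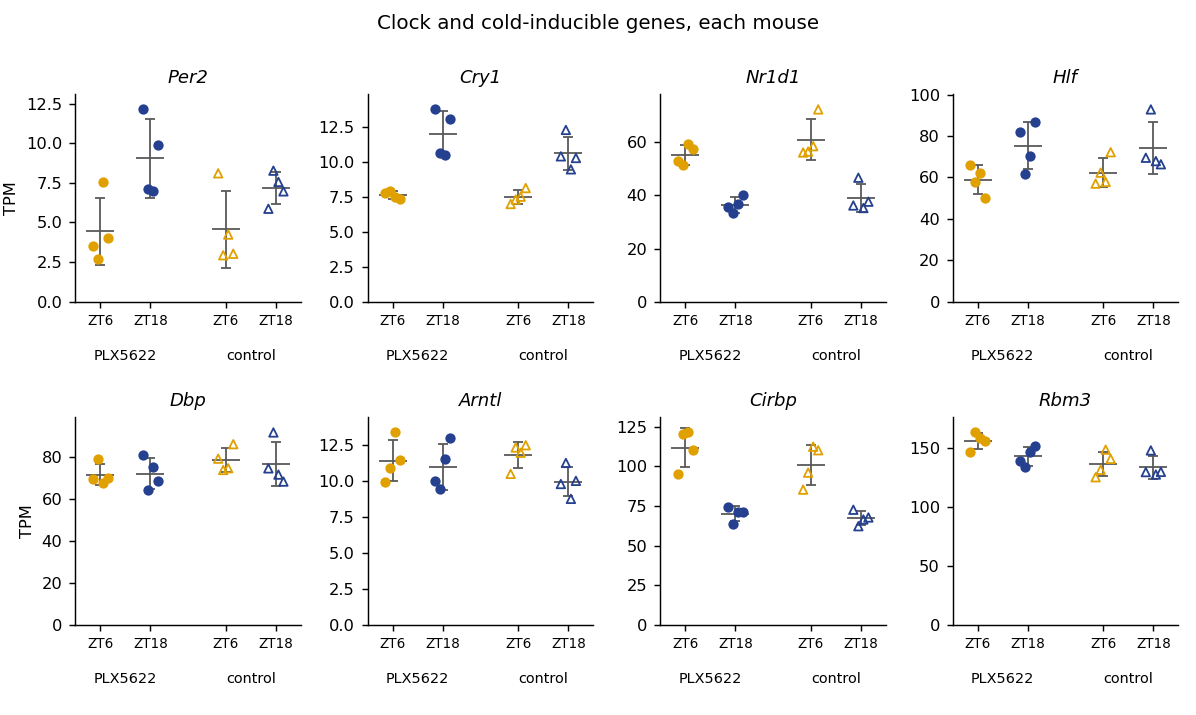
TPM of 8 clock and cold-inducible genes in each mouse (y axis from 0), at ZT6 (orange) and ZT18 (blue), with PLX5622 mice as filled circles and control mice as open triangles. Dashes and bars are the mean and SD of 4 mice; *Cry1* is above and *Nr1d1* and *Cirbp* are below ZT6 in all ZT18 mice on PLX5622, while *Dbp* and *Arntl* overlap.

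*Cirbp* and *Rbm3* encode RNA-binding proteins whose transcripts accumulate when a cell is cooled by a few degrees. *Cirbp*, on chromosome 10 from 80165985 to 80172786, was at 95.1, 120, 121 and 111 TPM at ZT6 and at 74.7, 63.6, 71.3 and 71.5 TPM at ZT18. All ZT18 mice were below all ZT6 mice, and the call held in all 8 fits that left out a mouse (log2 change -0.71, standard error 0.10, edgeR adjusted p = 6.02e-04). *Rbm3* was at 147, 163, 159 and 156 TPM and at 139, 134, 147 and 152 TPM, which overlapped, and was not called (log2 change -0.13, standard error 0.07, edgeR adjusted p = 0.514). The highest and lowest mean over the day fell at ZT10 and ZT18 for *Cirbp* and at ZT14 and ZT2 for *Rbm3*.

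With all mice in the fit, chaperones of the endoplasmic reticulum (ER) were the list with the most calls. They had 2 calls without ZT18 mouse 4 or ZT6 mouse 3 and 3 without ZT6 mouse 2, where the clock repressors had 3 each time. The ER folds secreted and membrane proteins, and when unfolded protein builds up, the unfolded protein response raises its chaperones through the factors XBP1 and ATF6. Of 17 members, 6 were called higher and 0 lower, all 17 had a log2 change above 0 in limma and in edgeR, and the median was 0.27 in limma, beside 0.419% of all genes called higher and an overall median of -0.005. In limma 7 of the 17 were higher at an unadjusted p under 0.05, beside 3.3% of all genes, and 0 passed the adjusted threshold. In edgeR 13 of the 17 were higher at that unadjusted threshold, beside 6.35% of all genes.

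*Hspa5* encodes BiP, the main chaperone of the ER, and lies on chromosome 2 from 34771970 to 34777547. It was at 67.1, 90.0, 84.7 and 87.4 TPM at ZT6 and at 134, 112, 113 and 184 TPM at ZT18, with no overlap (log2 change 0.62, standard error 0.10, edgeR adjusted p = 0.00278). *Pdia4*, a disulfide isomerase, was at 12.3, 13.9, 15 and 13.5 TPM and at 23.9, 17.1, 19.6 and 25.1 TPM (log2 change 0.61, standard error 0.10, adjusted p = 0.00213). In both genes ZT18 mice 1 and 4 were highest, and their calls held in all 8 fits that left out a mouse.

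The remaining 4 calls were lost when single mice were left out, although in each gene the 4 read counts at ZT18 were all above the 4 at ZT6 (1184 to 1562 and 1603 to 1929 reads for *Dnajc3*). *Sdf2l1*, which works with BiP, was at 10.8 to 14.2 TPM and 16.1 to 23.9 TPM (log2 change 0.69, edgeR adjusted p = 0.0159). It lost its call without ZT18 mouse 1 or 4 or ZT6 mouse 1, 2 or 3 (largest adjusted p 0.0703). *Manf*, a secreted ER protein, was at 80.4 to 94.0 TPM and 95.4 to 137 TPM (log2 change 0.41, adjusted p = 0.0174). It lost its call without ZT18 mouse 2 or 4 or ZT6 mouse 2 or 3 (0.105). *Xbp1*, at 32.9 to 42.9 and 41.6 to 67.4 TPM (log2 change 0.41, adjusted p = 0.00971), lost it without ZT18 mouse 4 or ZT6 mouse 3 (0.0681). *Dnajc3*, a co-chaperone, was at 14.6 to 17.4 and 15.9 to 22.8 TPM (log2 change 0.31, adjusted p = 0.0476) and was called in 1 of the 8 fits only, that without ZT18 mouse 3 (up to 0.222 without ZT6 mouse 2). Leaving out ZT18 mouse 4 or ZT6 mouse 3 left *Hspa5* and *Pdia4* as the called members.

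The ER stress element is CCAAT, 9 bases of any kind and CCACG, the letters that NF-Y and ATF6 bind. On either strand it is present in 0.113% of the 32851 windows of 250 bases before a RefSeq start (37 windows). Among the ER list, 6 of the 15 members with a window hold it: *Hspa5* and *Dnajc3*, which were called, and *Calr*, *Creld2*, *Hsp90b1* and *Pdia6*, which were not. *Pdia4*, *Sdf2l1* and *Xbp1* have no match in the window, and *Manf* had no window and could not be searched. The 150 bases before the start of the 2 called genes that hold it are printed along the gene, 5′ to 3′, with the element in capitals (GRCm38.p6, both on the plus strand, chr2:34771940-34772089 for *Hspa5* and chr14:118937782-118937931 for *Dnajc3*).
Hspa5: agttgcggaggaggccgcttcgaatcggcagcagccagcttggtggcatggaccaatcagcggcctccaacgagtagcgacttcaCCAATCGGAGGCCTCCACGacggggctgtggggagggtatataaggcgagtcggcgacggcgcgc
Dnajc3: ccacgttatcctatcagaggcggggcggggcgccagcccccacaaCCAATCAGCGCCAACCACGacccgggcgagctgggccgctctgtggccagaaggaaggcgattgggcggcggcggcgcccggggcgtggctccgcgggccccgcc
The last base of the element lies 47 bases before the start of *Hspa5* and 87 bases before that of *Dnajc3*. The 4 uncalled carriers each overlapped in TPM between ZT6 and ZT18. *Calr* was at 126 to 179 and 163 to 242 TPM, and *Creld2* at 7.87 to 12.2 and 9.79 to 18.7 TPM. *Hsp90b1* was at 83.1 to 110 and 95.9 to 136 TPM, and *Pdia6* at 42.3 to 57.1 and 53.0 to 80.2 TPM. In reads *Pdia6* did not overlap (1563 to 2043 at ZT6 and 2097 to 2384 at ZT18). The groups of *Creld2* met at 236 reads, and those of *Calr* and *Hsp90b1* overlapped.

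Cytosolic heat shock genes encode the chaperones outside the ER. Of 21 members, 2 were called higher and 0 lower, beside 0.419% and 0.119% of all genes. A log2 change above 0 was found in 20 of them in limma and in 21 in edgeR, and the median was 0.16. *Hspa1b*, a heat-inducible HSP70 gene, was at 3.30, 3.60, 4.49 and 3.78 TPM at ZT6 and at 7.48, 6.60, 6.61 and 11.1 TPM at ZT18, without overlap (log2 change 1.02, standard error 0.18, edgeR adjusted p = 0.00481). Its neighbour *Hspa1a* is nearly identical, so that reads may be shared between them. *Hspa1a* was at 2.99 to 5.05 and 5.16 to 9.99 TPM and was not called (adjusted p = 0.0873). *Chordc1*, a partner of HSP90, was called higher with 1062, 1106, 1177 and 894 reads at ZT6 and 1569, 1536, 1297 and 1576 at ZT18 (log2 change 0.47, standard error 0.08, adjusted p = 0.00278), while its TPM overlapped (20.5 to 36.6 and 26.8 to 45.7), again with a high value in ZT6 mouse 3. Both calls held in all 8 fits that left out a mouse. The heat shock element, searched as GAA, TTC and GAA with 2 bases of any kind between neighbours, on either strand, is in 0.466% of all windows and in 2 of the 16 members with a window, the neighbours *Hspd1* and *Hspe1*, neither of which was called.

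**Figure D3:**
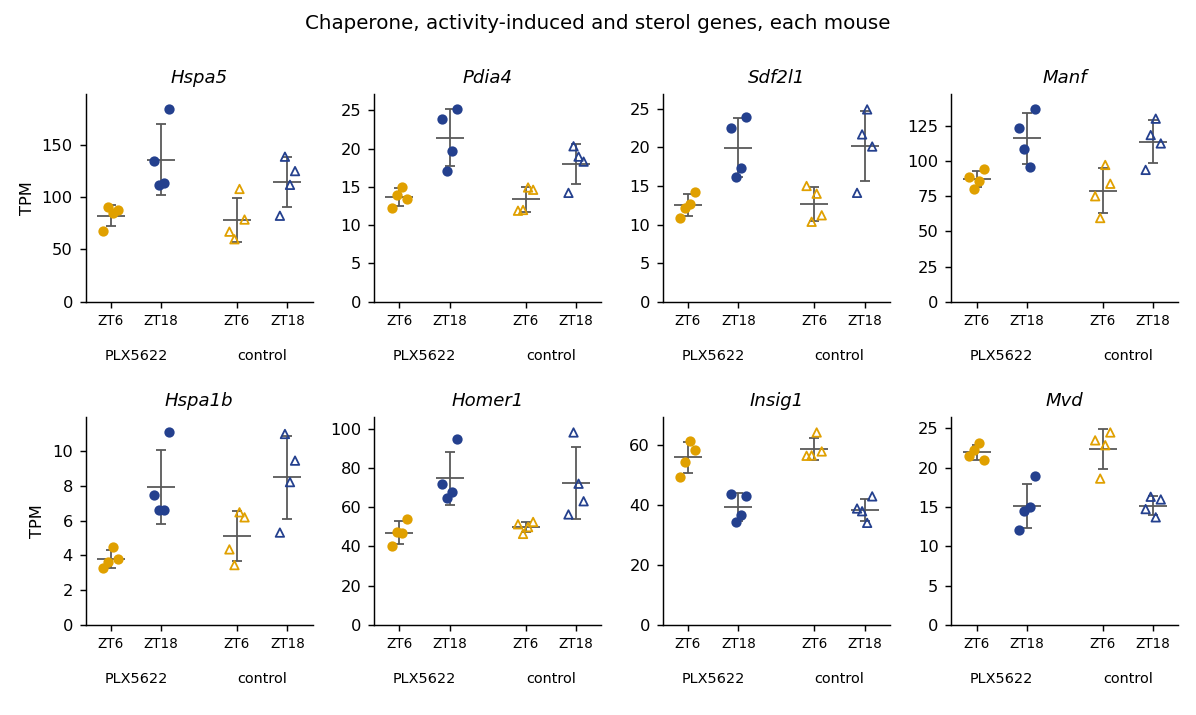
TPM of 8 chaperone, activity-induced and sterol genes in each mouse (y axis from 0), at ZT6 (orange) and ZT18 (blue), with PLX5622 mice as filled circles and control mice as open triangles. Dashes and bars are the mean and SD of 4 mice; in PLX5622 mice the ZT18 values of *Insig1* and *Mvd* are all below and those of the other 6 genes all above the ZT6 values.

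Of 25 immediate early genes, which neurons switch on within minutes of firing, *Homer1* was called higher, beside 0.419% of all genes. Its short form limits signalling at the synapses of active neurons, and gene-level values hold both forms. It lies on chromosome 13 from 93299635 to 93405129 and was at 40.0, 47.5, 47 and 53.8 TPM at ZT6 and at 71.8, 64.4, 67.9 and 94.7 TPM at ZT18. The groups did not overlap (log2 change 0.75, standard error 0.11, edgeR adjusted p = 9.11e-04), and the call held without ZT18 mouse 4, in which the summed immediate early genes were highest. The list's median was 0.10, with 4 members higher at an unadjusted limma p under 0.05, beside 3.3% of all genes. None of the 16 glucocorticoid-responsive genes was called by limma or edgeR. At an unadjusted p under 0.05 there were 3 higher in limma, and 6 higher and 1 lower in edgeR. Over all genes, 3.3% were higher in limma at that threshold, and 6.35% higher and 4.77% lower in edgeR.

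Of 24 members of the cholesterol list, 2 were called lower and 0 higher, 21 had a log2 change below 0 in limma and in edgeR, and the median was -0.13, beside 0.119% of all genes called lower. Many small negative changes were not particular to this list: 37 of 46 cytosolic ribosomal protein genes (median -0.12) and 80 of 96 nuclear respiratory chain genes (median -0.08) were also below 0 in limma, with 0 called in either test. *Insig1*, on chromosome 5 from 28071363 to 28078662, encodes the ER protein that holds back the sterol sensor SCAP. It was at 49.4, 54.3, 61.2 and 58.1 TPM at ZT6 and at 43.6, 34.2, 36.7 and 43.1 TPM at ZT18 (log2 change -0.50, standard error 0.08, edgeR adjusted p = 0.00130). *Mvd*, an enzyme of the mevalonate pathway, was at 21.5, 22.3, 23.1 and 20.9 TPM and at 12, 14.5, 15 and 18.9 TPM (log2 change -0.53, standard error 0.10, adjusted p = 0.00798). In both genes all ZT18 mice were below all ZT6 mice, and both calls held in all 8 fits that left out a mouse. Of 16 genes of glycogen and glucose supply, *Pfkfb3*, which makes the main activator of glycolysis, was called higher, beside 0.419% of all genes (log2 change 0.47, standard error 0.08, adjusted p = 0.00611). Its TPM overlapped between the times (7.03 to 10.6 and 9.12 to 15.1).

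In the astrocyte, excitatory neuron, interneuron and mural cell lists 0 members were called, and the list medians lay between -0.01 and 0.15. The calls of this paragraph stand beside 0.419% of all genes called higher and 0.119% called lower. Among 10 oligodendrocyte markers *Opalin*, a late myelin protein, was called lower, at 27.2, 29.8, 33.5 and 25.7 TPM at ZT6 and 22.6, 15.8, 18.8 and 15.4 TPM at ZT18, without overlap (log2 change -0.66, edgeR adjusted p = 0.0463). It kept the call in only 1 of the 8 fits that left out a mouse, that without ZT18 mouse 1 (up to 0.2 without ZT18 mouse 4). *Pllp*, the gene of the myelin protein plasmolipin, which is not on the list, was called lower in all 8 fits, at 75.3, 89.8, 90.2 and 83.0 TPM and at 66.4, 45.3, 48.3 and 64.5 TPM (log2 change -0.73, standard error 0.12, adjusted p = 0.00180). The summed oligodendrocyte markers overlapped, with 5752 to 6334 TPM at ZT6 and 4923 to 8324 TPM at ZT18, and the list's median log2 change was -0.03. *Gpr17*, a receptor of maturing oligodendrocyte precursors, was called higher (7.83 to 9.72 and 10.5 to 16.5 TPM, log2 change 0.45, adjusted p = 0.0249), and it lost the call without ZT18 mouse 2 or 4 or ZT6 mouse 2, 3 or 4 (largest adjusted p 0.167). *Mfsd2a*, the lipid transporter of the blood-brain barrier, was called higher among 12 endothelial markers, at 12.3, 12.3, 15.6 and 9.98 TPM and at 19.6, 16.6, 20.3 and 24 TPM (log2 change 0.71, standard error 0.12, adjusted p = 0.00477), in all 8 fits.

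The remaining microglial RNA did not separate the times, and its spread was wide. Of the 17 of 20 microglial genes that passed the TPM filter, 0 were called and 0 had an unadjusted p under 0.05 in limma, and the same held for all 20 in edgeR. Over all genes tested, edgeR called 0.538%. *C1qa*, a chain of complement C1q, was at 17.8, 19.0, 5.58 and 7.63 TPM at ZT6 and 13.1, 7.59, 11.9 and 13.4 TPM at ZT18 (log2 change in limma 0.02, standard error 0.58). *Ctss*, the gene of the protease cathepsin S, was at 15.1, 13.8, 5.64 and 8.88 TPM and at 10.8, 8.42, 9.19 and 14 TPM (0.03, standard error 0.53), and *P2ry12* at 1.17 to 4.79 and 2.75 to 5.33 TPM (0.29, standard error 0.41). With standard errors of this size, a change of 1 log2 unit in these genes would not have passed the adjusted threshold. The study asked whether microglia shape perineuronal nets, the matrix around interneurons, over the day. Of 13 net components 9 passed the TPM filter in limma and 12 the filter of edgeR, and in neither test were any called or at an unadjusted p under 0.05 (0 and 0). *Acan*, the gene of aggrecan, was below the filter of limma, with 0.354 to 0.508 TPM at ZT6 and 0.309 to 0.854 TPM at ZT18. Of 22 matrix proteases and inhibitors, 17 were tested in limma and 21 in edgeR, and all 11 interferon response genes in both. None of those tested (0 and 0) was called in either test, with 1 member of each lower at an unadjusted limma p under 0.05. In edgeR the same threshold gave 1 lower matrix gene and 2 higher interferon genes.

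Several of the genes with the largest changes belonged to none of the lists. *Cys1*, a gene of the primary cilium, was called higher in all 8 fits that left out a mouse, at 5.18, 6.95, 6.72 and 6.08 TPM and at 12.4, 9.08, 11.1 and 13.6 TPM (log2 change 0.90, standard error 0.15, edgeR adjusted p = 0.00283). *Cbfa2t3*, a transcriptional corepressor (log2 change 0.68, adjusted p = 0.0126), *Kirrel2*, a cell adhesion molecule (0.68, 0.0117), *Tmem151b*, a membrane protein (0.61, 0.0155), and *Hivep3*, a zinc finger protein (0.59, 0.00798), were called higher without overlap of their TPM. The call of *Hivep3* was lost without ZT6 mouse 2 (adjusted p = 0.0637), that of *Tmem151b* without ZT6 mouse 2 or 3 or ZT18 mouse 2 (up to 0.119), that of *Cbfa2t3* without ZT6 mouse 2 or 4 or ZT18 mouse 4 (up to 0.0977), and that of *Kirrel2* without ZT6 mouse 2, 3 or 4 or ZT18 mouse 2 (up to 0.0644). *Zbtb40*, a zinc finger gene named after its values were seen, had the smallest p of all genes. It was at 2.0, 0.967, 1.79 and 1.22 TPM at ZT6 and 3.41, 2.79, 2.92 and 5.96 TPM at ZT18, from 193, 134, 150 and 122 reads and 341, 369, 337 and 389 reads (log2 change 1.24, standard error 0.10, adjusted p = 6.49e-08).

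Among the lower genes outside the lists, the largest change was that of the noncoding RNA *AC026385.1*, at 6.98, 6.72, 8.14 and 9.21 TPM and at 2.78, 3.22, 1.88 and 3.21 TPM (log2 change -1.39, standard error 0.31, edgeR adjusted p = 0.0304). The groups were far apart in TPM, yet the call held only in the fit without ZT18 mouse 2 (up to 0.123 without ZT18 mouse 4). *Hnrnpdl*, the gene of an RNA-binding protein, was at 65.6, 77.2, 84.0 and 76.6 TPM and at 64.9, 54.3, 53.0 and 59.0 TPM (log2 change -0.44, adjusted p = 0.0165). *Klhdc9* (-0.65), *2810029C07Rik* (-0.59), *Rasl11b* (-0.49) and *Trim24* (-0.36) completed the lower genes named by size. *Trim24*, a transcriptional cofactor, lost its call without ZT18 mouse 2, 3 or 4 or ZT6 mouse 3 (up to 0.0758), and *Hnrnpdl* without ZT18 mouse 4 or ZT6 mouse 2, 3 or 4 (up to 0.0983). *Klhdc9* was called only without ZT6 mouse 1, *2810029C07Rik* only without ZT6 mouse 1, and *Rasl11b* only without ZT18 mouse 3 or ZT6 mouse 1 (up to 0.186, 0.131 and 0.113).

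The 16 PLX5622 libraries of the other Zeitgeber times hold values that the ZT18-ZT6 change of these genes did not use, although they entered the estimate of the spread. Of the 74 genes called higher at ZT18, 69 had a higher mean TPM at ZT14 and ZT22 than at ZT2 and ZT10, where 62.5% of the 14515 genes tested did. Of the 21 genes called lower, 18 had a lower mean in the dark than in the light at these times, beside 37.5% of all genes. Over all 6 times, 41 of the 74 higher genes had their highest mean at ZT14, 17 at ZT18, 9 at ZT2 and 7 at ZT22, and 61 their lowest at ZT6. Of the 21 lower genes, 19 had their lowest mean at ZT18 and 18 their highest at ZT6 or ZT10 (9 each), where the means at ZT6 and ZT18 are among the values that chose them.

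**Figure D4:**
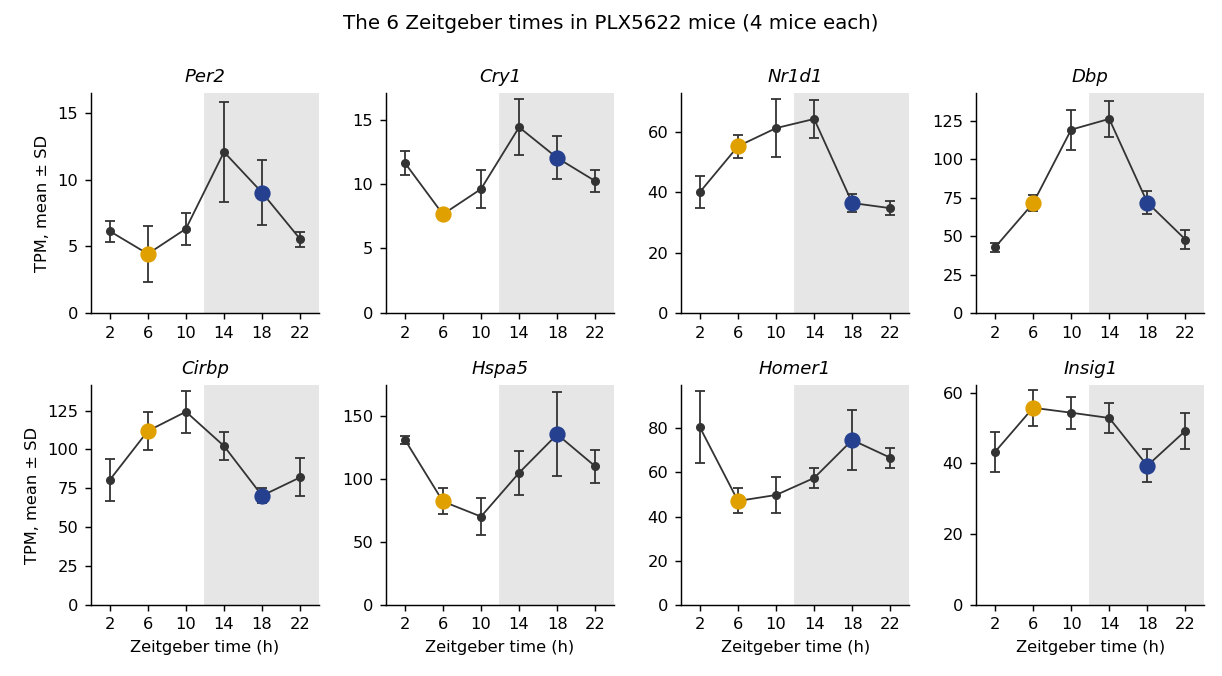
Mean TPM ± SD (4 mice each, y axis from 0) of 8 genes at the 6 Zeitgeber times in PLX5622 mice, with the dark phase shaded, ZT6 in orange and ZT18 in blue. *Per2* and *Cry1* have their highest mean at ZT14, before ZT18, *Cirbp* and *Insig1* their lowest at ZT18, and *Dbp* passes about the same level at ZT6 and ZT18.

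The named genes differed in where ZT18 fell in their day. These means were not tested against each other. *Per2* had a mean of 4.43 TPM at ZT6 and of 12.1 ± 3.74 TPM (SD, n = 4) at ZT14 and stood at 9.04 ± 2.46 TPM at ZT18. *Nr1d1* was highest at ZT14 as well (64.3 ± 6.30 TPM) and at 36.4 ± 2.89 TPM at ZT18, near its lowest mean at ZT22 (34.7 ± 2.27 TPM). *Hspa5* stayed high from ZT18 (136 ± 33.5 TPM) to ZT2 (132 ± 3.18 TPM) and was lowest at ZT10 (70.2 ± 15 TPM). *Homer1* was likewise at 74.7 ± 13.7 TPM at ZT18 and 80.5 ± 16.4 TPM at ZT2, which differ by less than their spread. *Insig1* was at 55.8 ± 5.10 TPM at ZT6 and at 39.4 ± 4.67 TPM at ZT18, and back at 49.3 ± 5.14 TPM at ZT22.

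The same contrast in control mice shares no library with that in PLX5622 mice. The difference between the diets in the ZT18-ZT6 change was tested as an interaction, and 0 of 14515 genes passed in limma (446 at an unadjusted p under 0.05, 3.07%), 0 of 18274 in edgeR (810, 4.43%) and 0 in DESeq2. Of the 95 genes called in PLX5622 mice, 94 had the same sign in control mice, beside 60.2% of all genes, 24 were also called there by edgeR, and 12 had an unadjusted interaction p under 0.05. In control mice limma called 8 genes (0.0551%) and edgeR 64 (0.367%), of which 24 were called in PLX5622 mice, so that 25.3% of the one list and 37.5% of the other were shared. In size, 83 of the 95 changes were smaller in control mice. The genes were chosen by their change in PLX5622 mice, and no test of this count was made. List medians in limma went both ways between PLX5622 and control mice. They were 0.10 and 0.49 for immediate early genes and -0.13 and -0.29 for the cholesterol list. For ER chaperones they were 0.27 and 0.18, and for clock repressors 0.17 and 0.04. Over all genes tested the medians were -0.005 and -0.06. The medians were not tested.

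Beside the PLX5622 values, the log2 changes in control mice (edgeR) were 1.09 for *Per2*, 0.55 for *Cry1*, -0.57 for *Nr1d1*, -0.53 for *Cirbp*, 0.72 for *Homer1*, -0.53 for *Insig1* and -0.48 for *Mvd*, each called there too. *Hspa5* had a log2 change of 0.60 in control mice (edgeR adjusted p = 0.0709) and of 0.62 in PLX5622 mice, with an interaction of 0.02 (unadjusted p = 0.916). The unadjusted interaction p of *Per2*, *Cry1*, *Nr1d1* and *Cirbp* ran from 0.231 to 0.946. *Nfil3* was called higher in control mice (log2 change 0.55, adjusted p = 0.0466) but was flat in PLX5622 mice (0.01), and the difference of -0.54 had an unadjusted p of 0.0147 and an adjusted p of 1. The 5 genes with the smallest interaction p in limma were *Hdac6*, *Gsdmd*, *AW822252*, *Wnk1* and *Dlg5*, all with an adjusted p of 1.

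**Figure D5:**
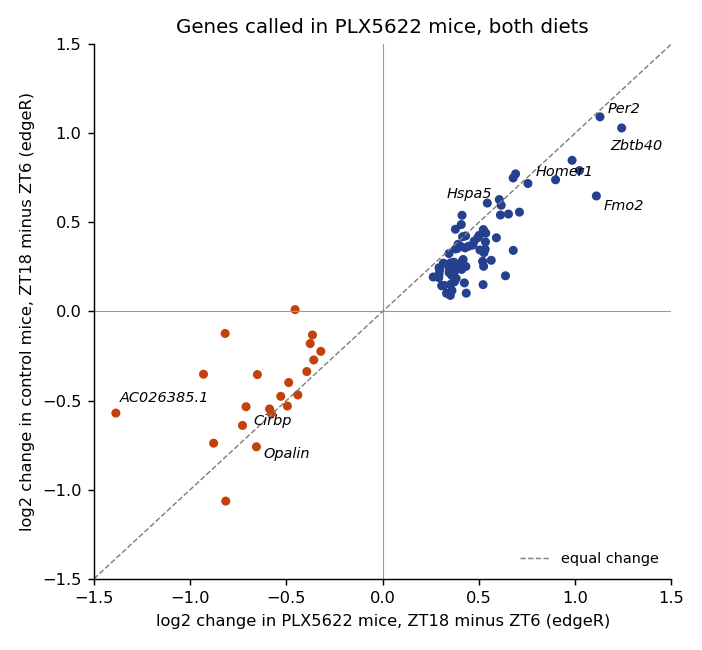
Log2 change from ZT6 to ZT18 (edgeR) in PLX5622 mice (x axis) and control mice (y axis) for the 95 genes called in PLX5622 mice, blue where higher and orange where lower at ZT18. The dashed line marks equal change; 94 of the 95 genes have the same sign in both diets, and 83 lie closer to 0 in control mice.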

How the data were processed

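Bulk RNA of the cortex was sequenced from 47 mice. How RNA species were selected for the libraries is not given in the sources used here. According to the methods of the study, the authors aligned paired reads with STAR to GRCm38.p6, kept the primary chromosomes and obtained TPM with Salmon and Gencode models. The deposited TPM table holds 54281 genes. A second deposited table holds whole-number counts for 54532 genes, although it is named for FPKM, and its counting settings are not given in the sources used here (the submitters' processing notes list featureCounts, edgeR and limma without a role). Samples were grouped by their labels.

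Here log2(TPM + 1) was fitted with limma 3.58.1 (R 4.3.3) for genes averaging 1 TPM or more over the 24 PLX5622 libraries, with a mean for each of 6 times and the contrast ZT18 minus ZT6. The interaction with diet used all 47 libraries. The Benjamini-Hochberg correction was taken over every gene in a fit. Counts were tested with edgeR 4.0.16 (quasi-likelihood, TMM, filterByExpr) and DESeq2 1.42.0 as alternatives. Standard errors beside edgeR changes were computed here as the size of the change divided by the square root of the F statistic. The study's own linear model with sequencing metrics was not applied. Because limma called no gene, the genes named by size were taken from edgeR: the 12 largest and 12 lowest changes among calls without overlap in TPM and with a mean of at least 3 TPM. Also named were called members of the lists, the core clock, PAR bZIP and cold-inducible genes (1 gene is not reported here), 5 check genes and the 5 smallest interaction p-values. The members and lists were chosen with earlier results of these data known. The main fits of the ZT18-ZT6 contrast in PLX5622 mice by limma, edgeR and DESeq2 were tested on simulated data. The share of false calls there was above the nominal threshold in all 3 tools and highest in DESeq2. The interaction with diet, the control mice and the fits with a covariate or block were not simulated. Motifs were searched on both strands of the 250 bases before RefSeq starts. Replicate pairs of a group differed by more than counting noise (chi-square per degree of freedom at least 6.17), so that no library was a copy of another. The p-values measure the spread between libraries of different mice, in which differences of dissection and library preparation are included. Whether that spread holds differences between cages is not known, since the cages are not given. Depth limits the precision of genes of few counts. NovaSeq and HiSeq instruments were used, and which library ran on which is not given, so that no comparison within an instrument could be made.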

Additional observations from a re-analysis of the deposited data

Results flagged for a closer look

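In 3 of the 122 groups of 4 mice that were examined, 1 mouse lay far from the other 3 relative to the group's range (Dixon's criterion at the 95% level), where chance alone would give about 6.1. *Csf1r* was at 2.89 TPM in ZT6 mouse 3 and at 4.38 to 4.54 TPM in the others. *Npas2* was at 24.6 TPM in ZT18 mouse 1 and at 18.3 to 19.1 TPM in the others. *Rorb* was at 6.05 TPM in ZT18 mouse 4 and at 5.16 to 5.23 TPM in the others.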

How the results depend on the processing

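The number of genes called higher and lower with limma (0 and 0, with 0 list members) was 1 and 0 (0) with only the 8 libraries, 9 and 14 (8) with all 47, 5 and 3 (0) without a TPM minimum, 8 and 9 (6) at 5 TPM or more, 0 and 0 (0) with a pseudocount of 0.1, 40 and 19 (13) with median-of-ratios scaling, 3 and 3 (2) with an intensity trend, 6 and 4 (5) with a replicate block and 48 and 25 (14) with the mitochondrial share as a covariate. On counts it was 74 and 21 (18) with edgeR, 137 and 32 (27) without its filter, 71 and 21 (17) with RLE size factors and 200 and 72 (26) with DESeq2. Without a replicate it was 0 higher, 0 to 1 lower and 0 to 1 list members, the 1 being without ZT18 mouse 4. The cause of these shifts was not tested.

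The edgeR calls (alternatives added after the data were seen) became 92 higher and 32 lower with all 47 libraries, 39 and 9 with only the 8, 167 and 56 with the mitochondrial covariate and 162 and 41 with a replicate block, and ran from 25 to 68 and from 8 to 21 without a replicate. Taken over all 14515 genes of the limma test, same-numbered mice of ZT6 and ZT18 did not deviate together (correlations -0.044 to 0.035). These correlations cover only those times, so they cannot show whether the replicate numbers mark a grouping shared by all PLX5622 libraries. They also do not speak for single genes. *Fos* was highest in mouse 4 at ZT6 (457 reads, others 96 to 192) and at ZT18 (628, others 140 to 181). *Nr4a3* was not highest in mouse 4 at ZT6 (270 reads, others 252 to 544). The interaction gave 0 genes under every alternative run.

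Of 1210 results under alternatives, 51 changed sign, all in genes that were not called. *Per1*, *Dbp*, *C1qa* and *Ctss* had log2 changes of 0.0149, -0.0482, -0.1612 and -0.0707 with edgeR, 0.0142, -0.047, -0.159 and -0.0687 without its filter, 0.0117, -0.0514, -0.163 and -0.0725 with RLE factors and 0.0124, -0.0508, -0.1569 and -0.0689 with DESeq2. *Rora* was at -0.0005 with median-of-ratios scaling and -0.0015 with a pseudocount of 0.1, and *Ciart* at 0.0147 with the mitochondrial covariate. Without a replicate the log2 change ran from -0.1321 to 0.0184 for *Arntl*, -0.2725 to 0.2631 for *C1qa*, -0.2188 to 0.1004 for *Ciart*, -0.2194 to 0.2079 for *Ctss*, -0.0497 to 0.0608 for *Dbp*, -0.0349 to 0.0892 for *Nfil3*, -0.0409 to 0.4513 for *P2ry12*, -0.2537 to 0.019 for *Per1*, -0.1482 to 0.1258 for *Rora* and -0.17 to 0.1784 for *AW822252*.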
